A study of Mus musculus with 27 samples.

Results

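The genes described here are 6 that make, activate, convert or break down sialic acid: Gne, Cmas, Cmah, Renbp, Slc35a1 and Npl. They were taken by symbol from the deposited table of 55487 genes, and all 6 passed the filter on low counts that left 17409 genes for testing. Retinas of mice aged 9 months were profiled by QuantSeq, a method that sequences the 3′ end of each mRNA, with 100 ng of total RNA per library. The 27 libraries, each named in the labels for a separate mouse, came from 4 genotypes. Wildtype mice (Gne+/+ C3+/+) gave 7 libraries and Gne+/- mice, heterozygous for a Gne knock-out and with C3 intact, gave 7. C3-/- mice, which lack the complement component C3 and carry both Gne copies (Gne+/+), gave 7, and the cross Gne+/- C3-/- gave 6. The labels describe knock-outs of the animal and name no tissue-specific driver, no position of the deleted part of Gne and no treatment. The design asks what a lowered sialic acid supply does to the middle-aged retina and whether complement is involved. Sialic acid itself was not measured in these data.

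Sialic acids are sugars at the tips of the glycans on cell surfaces, where receptors on microglia and regulators of complement bind them. Gne encodes the enzyme of both first steps, which turns UDP-GlcNAc into ManNAc and phosphorylates it, and it sets the rate of the pathway. Nans and Nanp then make free sialic acid, Cmas activates it to CMP-sialic acid in the nucleus, and Slc35a1 carries that donor into the Golgi for the sialyltransferases. Cmah hydroxylates the activated sugar to its N-glycolyl form. Renbp interconverts GlcNAc and ManNAc, and Npl cleaves sialic acid back to ManNAc.

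In GRCm38 the genes lie as follows. Gne (ENSMUSG00000028479) spans chromosome 4, 44034075 to 44084177, on the minus strand, and Slc35a1 (ENSMUSG00000028293) spans 34663257 to 34687438 on the same strand of that chromosome. Cmas (ENSMUSG00000030282) spans chromosome 6, 142756686 to 142775714, on the plus strand. Cmah (ENSMUSG00000016756) spans chromosome 13, 24327404 to 24477377, on the plus strand. Renbp (ENSMUSG00000031387) lies on chromosome X, 73922121 to 73930850, and Npl (ENSMUSG00000042684) on chromosome 1, 153503015 to 153550045, both on the minus strand. The counts take in exons and introns, ignore strand and leave out reads that fall where annotated genes overlap. Other genes cover 53.7% of the span of Cmah but 0% of its last 500 bases, and at most 1.27% of each of the other 5. Nans and Nanp cannot be read from this table: neighbours cover 68.5% and 99.8% of their spans, and they hold 21 and 0 counts over all 27 libraries.

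RefSeq gives Gne a pair of annotated starts in GRCm38.p6. The 250 bases before each are shown with those of Cmas, because Gne is the gene that fell and Cmas is the enzyme it is compared with inside each library. Capitals mark CG dinucleotides, and sequences run 5′ to 3′ on the gene's strand. The windows are chr4:44084178-44084427 (minus strand), chr4:44072718-44072967 (minus strand) and chr6:142756436-142756685 (plus strand).
Gne, outer start: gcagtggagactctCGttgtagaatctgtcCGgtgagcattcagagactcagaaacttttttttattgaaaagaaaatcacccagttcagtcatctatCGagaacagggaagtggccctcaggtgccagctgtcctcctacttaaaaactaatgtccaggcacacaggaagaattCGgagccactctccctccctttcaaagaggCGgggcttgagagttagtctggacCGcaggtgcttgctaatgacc
Gne, inner start: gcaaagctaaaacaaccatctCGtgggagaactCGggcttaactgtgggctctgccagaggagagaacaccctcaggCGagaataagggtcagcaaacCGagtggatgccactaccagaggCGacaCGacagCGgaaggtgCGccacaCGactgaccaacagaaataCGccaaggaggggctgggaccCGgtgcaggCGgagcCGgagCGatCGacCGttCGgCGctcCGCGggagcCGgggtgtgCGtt
Cmas: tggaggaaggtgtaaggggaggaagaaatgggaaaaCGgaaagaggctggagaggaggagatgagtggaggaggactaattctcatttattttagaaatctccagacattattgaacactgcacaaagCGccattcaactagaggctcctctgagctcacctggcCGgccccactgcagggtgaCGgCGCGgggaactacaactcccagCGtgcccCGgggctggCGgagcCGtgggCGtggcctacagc

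The outer Gne window holds 6 CG dinucleotides and 48.8% G and C, and the inner one holds 22 and 62.0%. Among 32851 RefSeq promoter windows of this length the median is 6 CG dinucleotides and 52.4% G and C, and 85.2% hold fewer CG dinucleotides than the inner Gne window. The Cmas window holds 11 and 56.8%. These 3 windows were searched on both strands for common promoter motifs. None holds GGGCGG (the GC box), found in 32.7% of all windows, or TATAAA (the core of the TATA box), found in 12.4%. The same holds for CCAAT, found in 33.9%, and for the E-box CACGTG, found in 6.02%. Reads from the 3′ end do not tell transcripts from the inner and outer start apart.

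The labels place 18 libraries in sequencing run 1 (5 wildtype, 5 Gne+/-, 4 C3-/- and 4 Gne+/- C3-/-) and 9 in run 2 (2, 2, 3 and 2). Total counts were 13.5 to 21.3 M in run 1 and 14.9 to 34.2 M in run 2. The runs differed in 59.5% of tested genes, so levels are given within a run and every main comparison carries the run as a term. Retinal identity was checked with rod photoreceptor markers, of which 8 of 8 were tested, with a summed level of 46921 to 72694 CPM (counts scaled by library size) in run 1 and 27687 to 35070 in run 2. Microglia and macrophage markers summed to 40.7 to 91.3 CPM in run 1 and 33.2 to 49.0 in run 2. In whole retina, fewer cells of a type and less RNA per cell cannot be told apart.

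Gne was the member that changed with the Gne genotype. In run 1 it measured 99.2, 121.8, 131.5, 132.3 and 161.6 CPM in wildtype libraries and 33.9, 48.2, 49.5, 49.6 and 56.7 CPM in Gne+/- libraries. The C3-/- libraries of run 1 measured 109.6, 110.5, 110.9 and 135.6 CPM and those without C3 and with a single Gne copy 32.04, 40.1, 42.1 and 44.0. In run 2 wildtype libraries measured 47.0 and 55.5 CPM and Gne+/- libraries 13.05 and 16.4. The C3-/- libraries of that run measured 43.0, 45.0 and 45.8 CPM and the Gne+/- C3-/- libraries 13.01 and 14.1. Heterozygous libraries lay below all libraries with both copies within each run, with no overlap. The order of the means was wildtype, C3-/-, Gne+/- and Gne+/- C3-/- in both runs. Wildtype and C3-/- libraries overlapped in run 1 and not in run 2, and the last pair of groups overlapped in both runs. Groups as small as those of run 2 can separate without a true difference. The share of all genes whose groups separated was not computed. Run 2 wildtype libraries fell inside the range of run 1 Gne+/- libraries, so levels were compared only within a run.

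**Figure D1:**
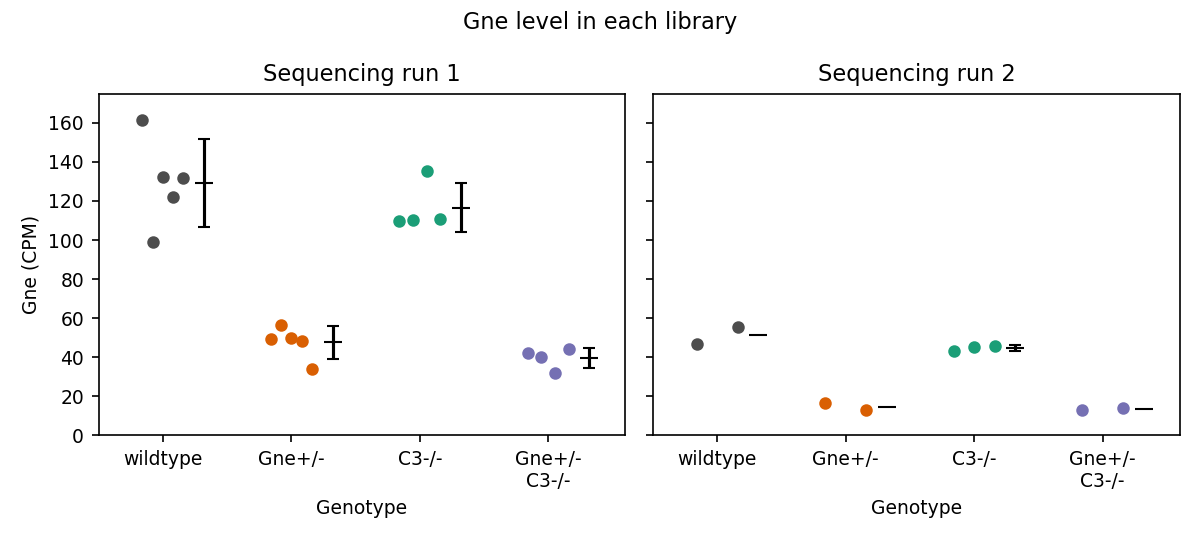
Gne level in CPM (vertical axis, from 0) for each library by genotype, with sequencing run 1 on the left and run 2 on the right. Points are libraries, horizontal ticks are means, and bars are ± 1 SD where a group has more than 2 libraries; heterozygous libraries sit at 32.04 to 56.7 CPM in run 1 and 13.01 to 16.4 in run 2, below all others of their run.

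The 2 comparisons that test the loss of a Gne copy gave values close to each other. In Gne+/- against wildtype mice 34.3% of the Gne level remained (95% interval 28.6% to 41.3%), a log2 fold change of -1.54 with an SE of 0.130 and an edgeR adjusted p of 3.32e-09. In Gne+/- C3-/- against C3-/- mice 32.5% remained (26.7% to 39.5%), a change of -1.62 with an SE of 0.138 and an edgeR adjusted p of 4.46e-09. In each comparison 1 of 6 members passed, and Gne was the 1 gene in 17409 that did, or 0.00574% of genes tested. Without the run as a term, Gne did not pass in either comparison, at -1.49 and -1.47 (edgeR adjusted p = 1.0 in both). The difference between the effects with and without C3 was -0.079 (95% interval -0.45 to 0.30, edgeR adjusted p = 1.0), and 0 genes passed that interaction test in edgeR, DESeq2 and limma-voom, with 554 at an unadjusted p under 0.05 (3.18% of genes) in edgeR and 30 past the threshold with no filter on low counts.

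With all 27 libraries the mean of these effects was -1.58 (SE 0.0951, 95% interval -1.78 to -1.39, edgeR adjusted p = 2.2e-13), again with 0.00574% of genes past the threshold. That left 33.4% of the level with both copies (29.2% to 38.2%). A loss in proportion to copy number would be a fall of 1 on this scale if the targeted allele gave no counted 3′ reads. Whether it does is not known, since the position of the deletion is not given, so the 33.4% is a share of counted reads and not of intact Gne mRNA. A test against a change of at most 1 (edgeR glmTreat) gave an adjusted p of 0.000493 for Gne and called 1 gene. It was not met in run 1 alone (adjusted p = 1, edgeR glmTreat, unadjusted p = 6.16e-05) or without the run term (adjusted p = 1), and it was met in run 2 alone (adjusted p = 0.0438). In a model with a mean for each genotype in each run, chosen after the data were seen, Gne changed by -1.501 in run 1 (SE 0.117, 95% interval -1.74 to -1.26) and by -1.76 in run 2 (SE 0.172, -2.11 to -1.41). These differed by -0.26 (SE 0.201, edgeR adjusted p = 1.0), within an interval of -0.67 to 0.15. The exact permutation test on run-centred log2 CPM, with labels exchanged within run, gave -1.54 (2-sided p = 0.00132) and -1.60 (p = 0.00143) for the 2 comparisons. These are the smallest p that the 1512 and 700 arrangements allow, among 24 such exact tests run on the members. In all the other exact tests, those of the other 5 genes included, p was 0.0807 or more.

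Lens markers were high in the Gne+/- libraries of run 1. Of 8 tested lens genes, 8 had positive fitted differences for Gne loss and 0 passed (6 at an unadjusted p under 0.05, edgeR), with a median of 2.44 on the log2 scale. Their summed level in run 1 was 1.19 to 169 CPM in wildtype and 129.7 to 1769 CPM in Gne+/- libraries, and 1.28 to 129 CPM in C3-/- and 3.79 to 165 in Gne+/- C3-/- libraries. The wildtype and Gne+/- ranges overlapped, as did those of C3-/- and Gne+/- C3-/-. The medians in run 1 lay apart, at 4.78 CPM in wildtype and 208.6 in Gne+/- libraries. They were 6.93 CPM in C3-/- and 71.1 in Gne+/- C3-/- libraries. In run 2 the sum stayed between 1.64 and 67.4 CPM in all groups, and 28.7% of the wildtype Gne level remained in Gne+/- mice there, against 36.8% in run 1. Cryaa and Cryba1 cannot be read from this table. Other annotated genes cover 100% of their spans, and both held 0 counts in every library. Of 7 fibroblast markers 7 were positive and 0 passed. Their part in the result was not tested.

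Cmas makes the activated sugar a few steps below Gne and served as a reference inside each library, since a ratio of 2 counts does not depend on library size. In run 1 the ratio of Gne to Cmas counts was 0.972, 1.35, 1.39, 1.67 and 1.78 in wildtype libraries and 0.305, 0.572, 0.604, 0.611 and 0.780 in Gne+/- libraries. It was 1.02, 1.46, 1.48 and 1.503 in C3-/- libraries and 0.309, 0.374, 0.526 and 0.529 in Gne+/- C3-/- libraries. In run 2 it was 1.04 and 1.43 in wildtype, 0.419 and 0.512 in Gne+/-, 0.795, 1.08 and 1.40 in C3-/- and 0.345 and 0.348 in Gne+/- C3-/- libraries. Gne counts thus exceeded Cmas counts in 12 of the 14 libraries with both copies and in 0 of the 13 heterozygous ones. The run means of the same genotype lay closer than for Gne alone: 1.43 and 1.23 in wildtype, 0.575 and 0.466 in Gne+/-, 1.37 and 1.09 in C3-/-, and 0.434 and 0.346 in Gne+/- C3-/-. The log2 ratio changed by -1.36 in Gne+/- against wildtype mice (exact 2-sided permutation within run, p = 0.00132) and by -1.64 in Gne+/- C3-/- against C3-/- mice (exact p = 0.00143), again the smallest p possible. The ratio was chosen after the data were seen.

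**Figure D2:**
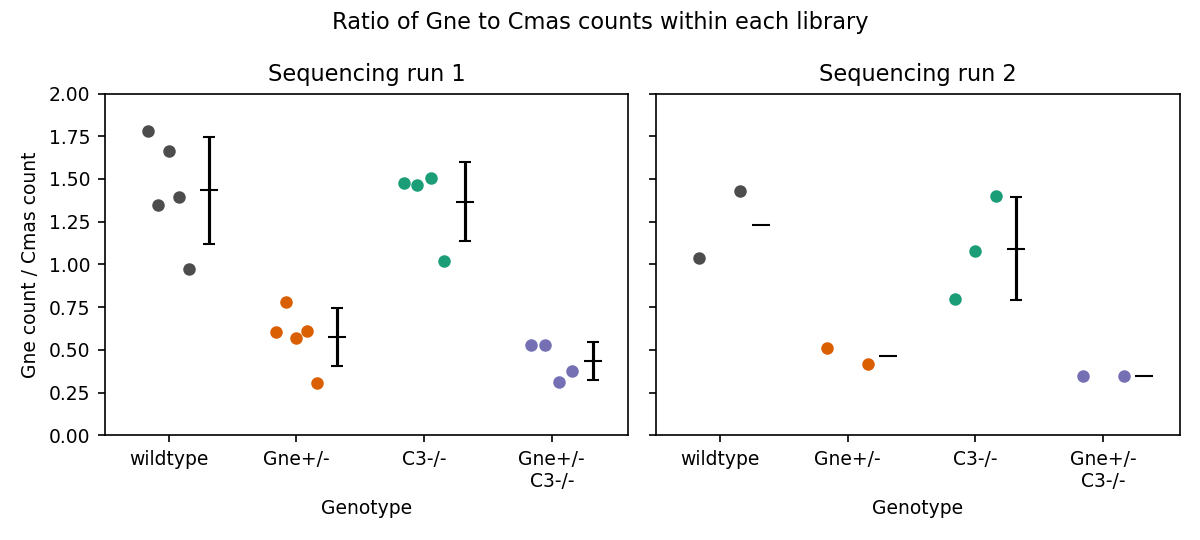
Ratio of the Gne count to the Cmas count (vertical axis, from 0) in each library by genotype, with run 1 on the left and run 2 on the right. Points are libraries, ticks are means and bars are ± 1 SD where a group has more than 2 libraries; heterozygous libraries reach at most 0.780 and the others lie at 0.795 or above.

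Cmas itself did not pass in any genotype comparison. In run 1 it measured 73.5, 79.4, 87.5, 90.6 and 135 CPM in wildtype, 72.8, 78.9, 81.9, 86.7 and 111 in Gne+/-, 74.2, 75.5, 90.2 and 108 in C3-/-, and 76.2, 79.6, 104 and 118 in Gne+/- C3-/- libraries. All 4 genotypes overlapped there. In run 2 it measured 38.8 and 45.4 CPM in wildtype, 31.2 and 31.98 in Gne+/-, 32.8, 41.7 and 54.1 in C3-/-, and 37.4 and 41.0 in Gne+/- C3-/- libraries. The Gne+/- pair of run 2 lay below the wildtype pair and below the Gne+/- C3-/- pair. Pairs can separate in this way without a true difference, and the share of all genes that did so was not computed. The pooled effect of Gne loss on Cmas was -0.090 on the log2 scale (95% interval -0.31 to 0.13, edgeR adjusted p = 1.0), an interval of 80.7% to 109% of the level with both Gne copies.

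Slc35a1, the Golgi carrier of CMP-sialic acid, had a negative difference in both Gne comparisons and passed in neither. In run 1 it measured 76.7, 82.2, 106, 108 and 122 CPM in wildtype, 66.7, 79.6, 81.8, 104 and 132 in Gne+/-, 85.3, 87.8, 96.3 and 100.7 in C3-/-, and 54.6, 56.3, 90.7 and 110.1 in Gne+/- C3-/- libraries. In run 2 it measured 28.6 and 51.7, 24.8 and 32.7, 35.0, 35.1 and 35.7, and 22.8 and 41.5 CPM in the same order of genotypes. In both runs the groups overlapped in all 4 genotype comparisons made, and 2 Gne+/- C3-/- libraries of run 1 were the lowest of that run. The pooled difference was -0.20 (SE 0.127, 95% interval -0.46 to 0.054, edgeR adjusted p = 1.0), or 72.5% to 104% of the level with both copies.

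Cmah, which makes the N-glycolyl form, was low in run 1 and higher in run 2. In run 1 it measured 5.99, 7.25, 8.33, 14.9 and 18.2 CPM in wildtype, 3.95, 4.37, 8.50, 8.52 and 14.96 in Gne+/-, 6.08, 9.72, 12.2 and 13.3 in C3-/-, and 10.2, 10.4, 14.2 and 15.2 in Gne+/- C3-/- libraries. The run 2 libraries measured 42.6 and 49.0, 41.3 and 46.8, 40.2, 43.0 and 45.8, and 45.7 and 52.7 CPM in the same order. The groups of these comparisons overlapped in both runs. Its largest difference between 2 genotypes compared was 0.48 (SE 0.265, 95% interval -0.060 to 1.02) in Gne+/- C3-/- against Gne+/- mice, which did not pass (unadjusted p = 0.0796, edgeR adjusted p = 0.812). Gne loss gave -0.032 over all libraries (-0.41 to 0.34, or 75.5% to 127%).

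Npl and Renbp, the enzymes of sialic acid breakdown and of the ManNAc side reaction, had few counts. Npl in run 1 measured 0.968, 7.81, 8.05, 9.17 and 14.9 CPM in wildtype, 3.69, 3.76, 7.17, 12.0 and 12.4 in Gne+/-, 0.450, 7.06, 7.50 and 12.1 in C3-/-, and 5.30, 5.36, 5.87 and 6.91 in Gne+/- C3-/- libraries. Its raw counts there ran from 6 to 263. Run 2 libraries measured 3.55 and 5.05, 2.82 and 3.06, 3.83, 4.67 and 4.93, and 3.20 and 3.31 CPM in the same order. Both heterozygous pairs lay below their references in run 2 and overlapped them in run 1. The Gne+/- C3-/- pair of run 2 also lay above the Gne+/- pair. Groups this small can separate without a true difference, and the share of all genes so separated was not computed. Renbp in run 1 measured 0.968, 3.17, 3.52, 5.04 and 5.16 CPM in wildtype, 0.667, 1.08, 1.57, 2.78 and 3.46 in Gne+/-, 1.45, 2.50, 2.98 and 3.75 in C3-/-, and 0.970, 3.25, 3.67 and 4.43 in Gne+/- C3-/- libraries. Those of run 2 measured 1.53 and 7.55, 1.16 and 9.09, 3.52, 3.78 and 9.59, and 5.03 and 5.20 CPM. Renbp values overlapped between the groups of every comparison in both runs.

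The fitted intervals of these low genes are wide. Gne loss gave -0.26 for Npl (95% interval -0.92 to 0.40, or 52.8% to 132% of the level with both copies) and -0.26 for Renbp (-0.99 to 0.47, or 50.3% to 139%), with an edgeR adjusted p of 1.0 for both. In run 1 the spread between wildtype libraries was 60.7% of the mean for Npl and 47.7% for Renbp, against 8.22% and 12.5% from counting alone. Renbp is X-linked, and the mean of 4 Y-linked genes was over 10 CPM in 0 of 5, 2 of 5, 4 of 4 and 2 of 4 libraries of run 1 in the order wildtype, Gne+/-, C3-/- and Gne+/- C3-/-. The same order gave 2 of 2, 2 of 2, 0 of 3 and 2 of 2 for run 2. With the Y-linked level as a term Renbp passed in no genotype comparison.

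**Figure D3:**
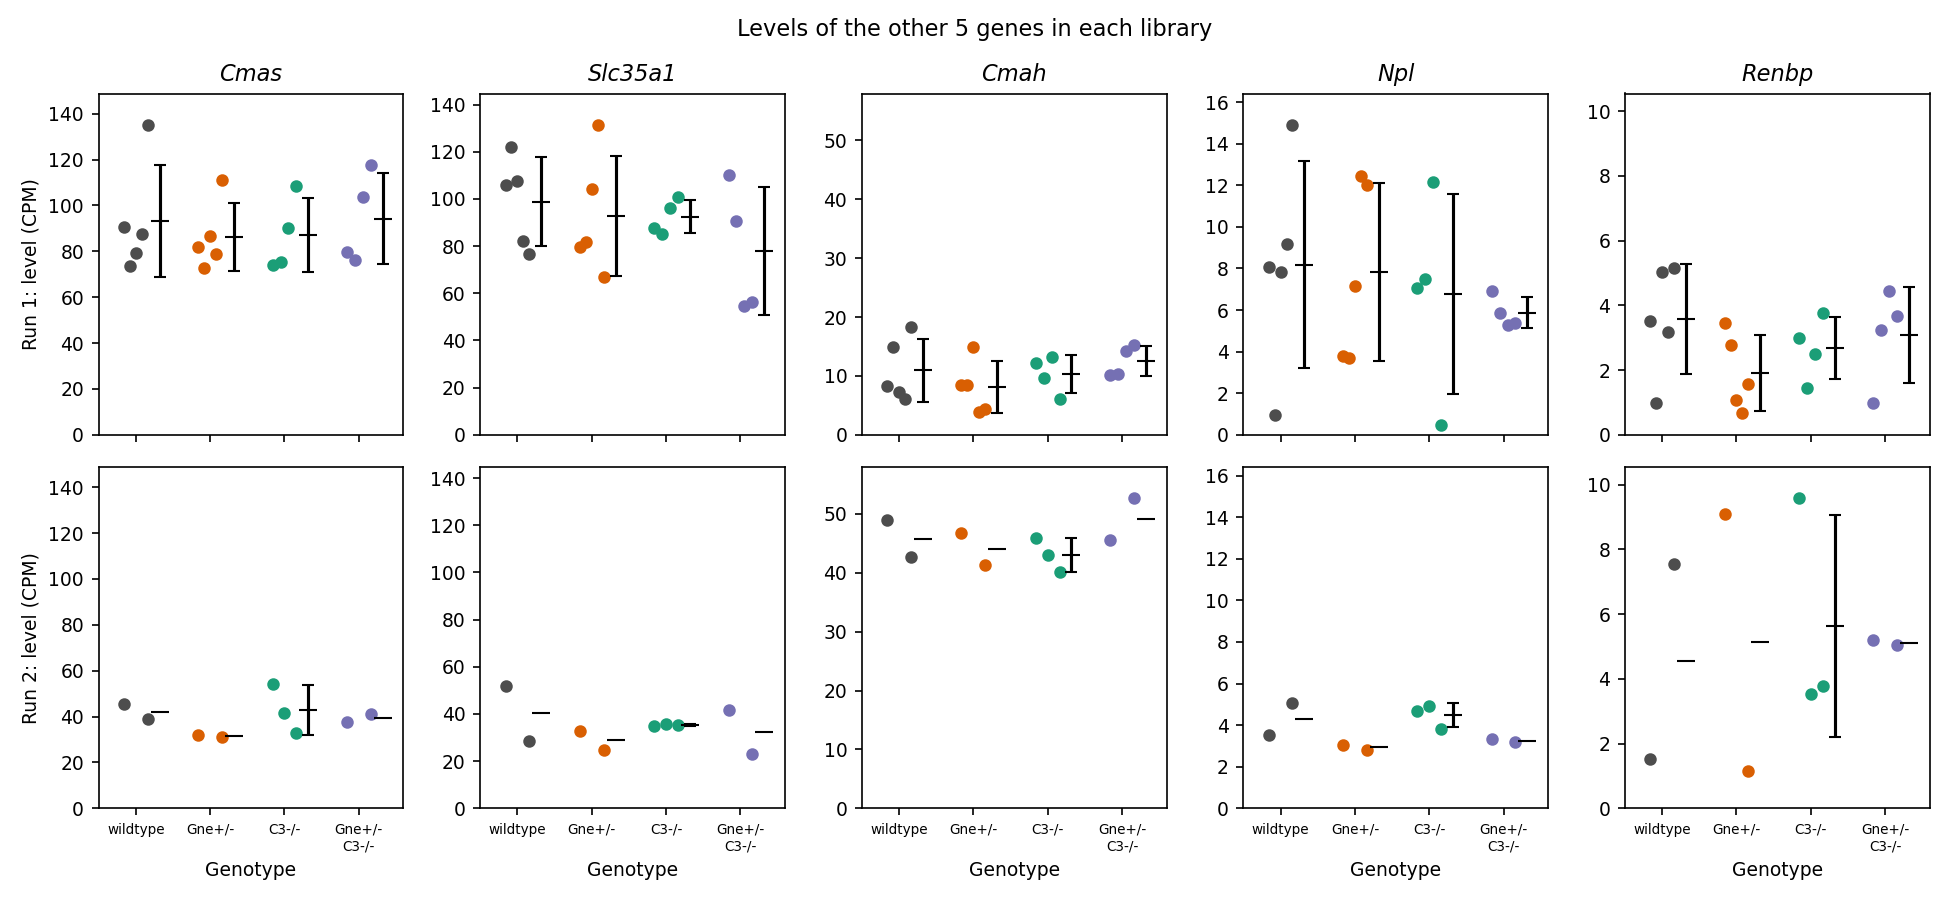
Level in CPM (vertical axes, from 0, shared by the runs of a gene) of Cmas, Slc35a1, Cmah, Npl and Renbp in each library by genotype, run 1 above and run 2 below. Points are libraries, ticks are means and bars are ± 1 SD where a group has more than 2 libraries; genotypes overlap for every gene in run 1, and Cmah is at 3.95 to 18.2 CPM in run 1 and 40.2 to 52.7 in run 2.

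Read as a list, the members' fitted differences had a median of -0.26 in Gne+/- against wildtype mice, with 6 of 6 negative, beside a median of 0.0050 and 50.6% positive over all genes. In Gne+/- C3-/- against C3-/- mice the median was -0.10, with 3 of 6 negative. Both comparisons hold the targeted gene. The other 5 had adjusted p of 0.914 to 0.969 in the first (edgeR) and of 1 in the second.

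Loss of C3 changed no member past the threshold. The differences in C3-/- against wildtype mice were -0.15 for Gne, -0.035 for Cmas, -0.097 for Cmah, -0.21 for Renbp, -0.12 for Slc35a1 and -0.12 for Npl on the log2 scale, with 0 of 6 called beside 0.167% of all genes. This comparison shares the wildtype libraries with the first Gne comparison. Its groups also differed in the Y-linked genes within each run. Their mean was over 10 CPM in 4 of 4 C3-/- and 0 of 5 wildtype libraries of run 1. In run 2 it was over 10 CPM in 0 of 3 and 2 of 2. Within a run, that difference and the loss of C3 cannot be told apart here. In Gne+/- C3-/- against Gne+/- mice, where 0.19% of genes passed, 0 of 6 did, and the values were -0.23 for Gne, 0.17 for Cmas, 0.48 for Cmah, 0.46 for Renbp, -0.13 for Slc35a1 and -0.27 for Npl. Over all libraries Gne differed by -0.19 with loss of C3 (SE 0.0927, 95% interval -0.38 to -0.0015, unadjusted p = 0.0483, edgeR adjusted p = 0.645), or 87.7% of its level with C3. In that pooled comparison 0.569% of genes passed and 0 of 6 members, and in none of the C3 comparisons did DESeq2 or limma-voom call a member.

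**Figure D4:**
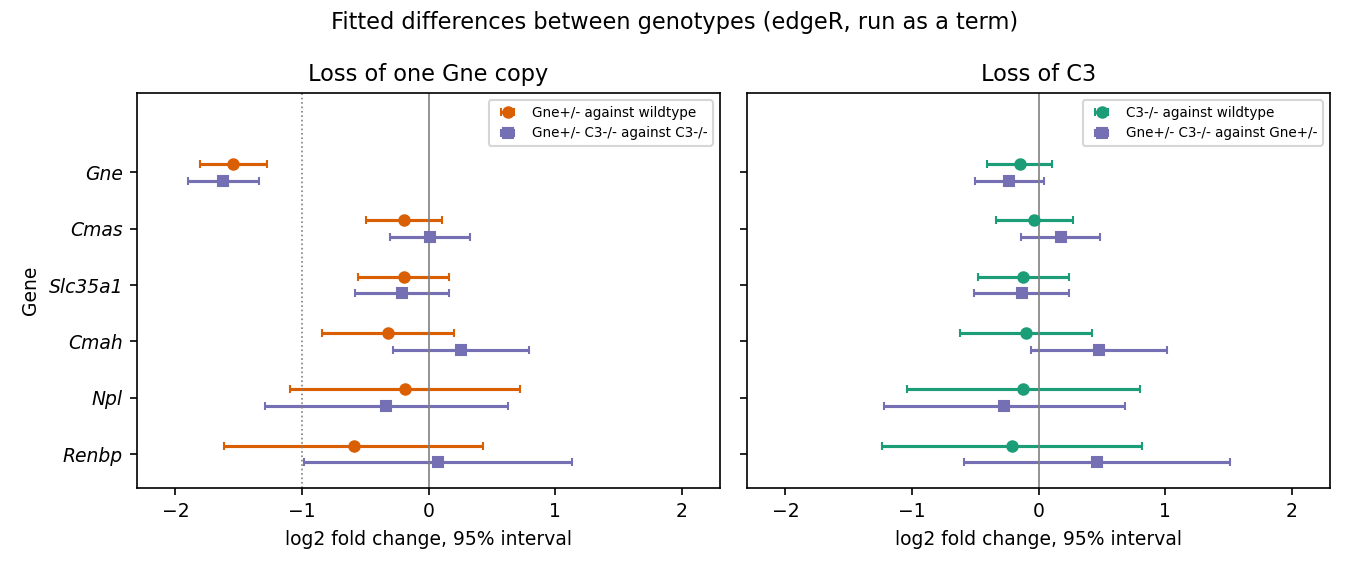
Fitted log2 fold changes (horizontal axis) with 95% intervals for the 6 genes, for loss of a Gne copy on the left and loss of C3 on the right; the dotted line marks a fall of 1. Gne lies at -1.54 and -1.62 on the left, and the intervals of the other 5 genes include 0 in both panels.

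All 6 genes differed between the runs, beside 59.5% of all genes (30.3% higher and 29.2% lower), so the count is read only against that share. From run 1 to run 2, Gne fell by 1.48 (edgeR adjusted p = 4.2e-14), Slc35a1 fell by 1.41 (2.5e-10), Cmas fell by 1.21 (1.5e-10) and Npl fell by 0.92 (0.0283). Cmah rose by 2.14 (6.32e-12) and Renbp by 0.92 (0.0337). The calls for Npl and Renbp were lost in limma-voom (-0.69 and 0.69, adjusted p = 0.142 and 0.110). Leaving out Gne+/- mouse 7, Gne+/- mouse 8 or C3-/- mouse 5 ended the call for Npl (adjusted p of 0.0534, 0.0559 and 0.0618). Leaving out wildtype mouse 8, Gne+/- mouse 7, C3-/- mouse 2 or C3-/- mouse 7 ended that for Renbp (0.0805, 0.233, 0.0522 and 0.0910).

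The run difference followed annotated gene length over all genes. Its median was -0.37 for 4432 genes under 10 kb, -0.095 for 3149 genes of 10 to 20 kb, -0.00089 for 4568 of 20 to 50 kb, 0.22 for 2558 of 50 to 100 kb and 0.31 for 2702 over 100 kb. Cmah, at 149.97 kb, lay above 98.1% of genes of its length class. Gne lay above 4.85% of its class, Slc35a1 above 10.9%, Cmas above 20.9%, Npl above 21.7% and Renbp above 74.9%. In counts, Cmah ran at 0.118 of Cmas in wildtype libraries of run 1 (mean of 5) and at 1.09 in those of run 2 (mean of 2). The order of levels among these genes therefore depends on the run.

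**Figure D5:**
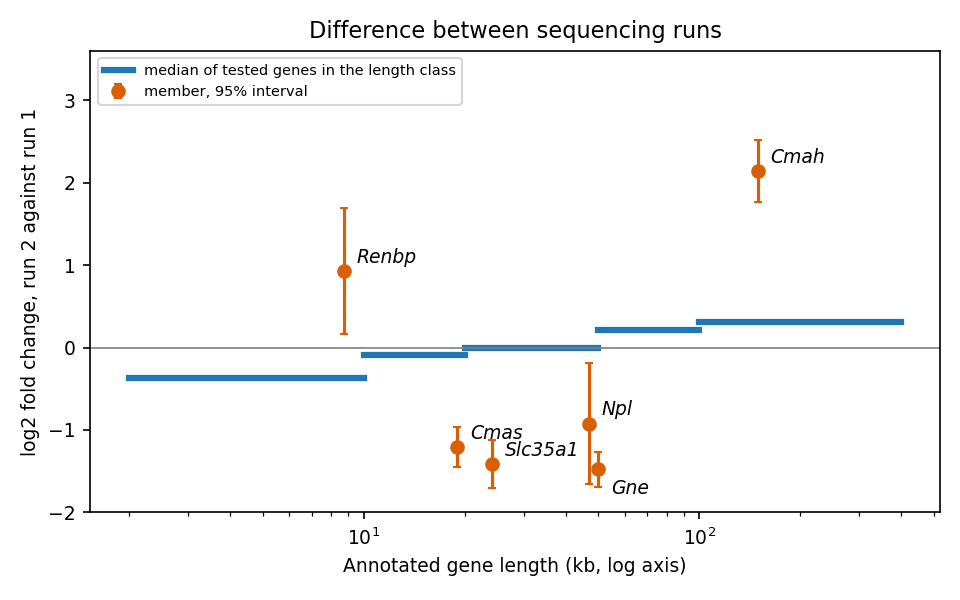
Fitted log2 fold change of run 2 against run 1 (vertical axis) for the 6 genes by annotated gene length in kb (horizontal log axis), with 95% intervals. Horizontal lines are medians of tested genes by length class, of which the first holds all genes under 10 kb and the last all over 100 kb; Cmah at 2.14 and Renbp at 0.92 lie above 0 and the other 4 genes below.

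Per kb of annotated gene, the median level in run 1 was 4.43 CPM for Cmas, 3.69 for Slc35a1, 1.56 for Gne, 0.352 for Renbp, 0.151 for Npl and 0.0664 for Cmah. In run 2 it was 2.04, 1.45, 0.859, 0.576, 0.0754 and 0.304 in the same order of genes. These medians span all genotypes, and most reads of this kit come from the 3′ end, so dividing by length lowers long genes such as Cmah. By CPM without length, the median of Gne in run 1 lay above 83.5% of tested genes, that of Cmas above 84.7%, of Slc35a1 above 85.4%, of Cmah above 48.9%, of Npl above 44.4% and of Renbp above 33.5%. In run 2 these shares were 74.8%, 72.7%, 70.7%, 75.9%, 32.3% and 36.5%.

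The genes whose run-centred log2 CPM followed a member most closely over the 27 libraries were taken as the 3 highest Pearson correlations. Genes with provisional symbols (Gm numbers and Rik names) or no symbol were skipped. Beside Gne stood Zdhhc15 (0.72), Ankrd17 (0.67) and Colgalt2 (0.66). Beside Cmas stood Thy1 (0.84), a marker of ganglion cells in the retina, Pink1 (0.82) and Pcp4 (0.81), and beside Slc35a1 Dctn6 (0.87), Tex9 (0.82) and Psmd14 (0.81). Beside Cmah stood Prkd2 (0.79), Anxa9 (0.78) and Glmn (0.75), beside Renbp Slc45a1 (0.78), Ube2m (0.77) and Ankrd49 (0.76), and beside Npl Uevld (0.79), Dctn1 (0.76) and Uqcc2 (0.74). No member was among the closest genes of another: the highest correlation between members was 0.39, between Gne and Slc35a1. The libraries share depth and tissue composition, and these values are descriptions. Centring was by run and not by genotype, so a correlation with Gne takes in the genotype difference of Gne. With loss of a Gne copy the pooled differences were -0.76 for Zdhhc15, -0.14 for Ankrd17 and -0.34 for Colgalt2 on the log2 scale, and none passed.

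The wider pathway was read from lists that supply UDP-GlcNAc, release sialic acid, attach it, carry other nucleotide sugars or bind sialic acid. In the pooled Gne comparison 0 genes of any of these lists passed in edgeR, beside 0.00574% of all genes. At an unadjusted p under 0.05 there were 2 sialyltransferases and 0 genes of the other 4 lists, beside 3.3% of all genes. Of the 20 sialyltransferases 18 were tested, with 10 positive, 8 negative and a median of 0.011. St3gal5, which makes the ganglioside GM3, had the smallest p of that list at -0.33 (SE 0.115, unadjusted p = 0.00702, edgeR adjusted p = 1.0). Of 10 UDP-GlcNAc genes 9 were tested, with 5 positive and a median of 0.055, and Gfpt1, which opens hexosamine synthesis, stood at -0.13. Of 7 release and export genes 6 were tested, with 4 positive and a median of 0.14, and Siae, which removes acetyl groups from sialic acid, stood at 0.39 (SE 0.235). Of 8 sialic acid receptors 4 were tested, all negative with a median of -0.32, and Cd33 stood at -0.63 (SE 0.853) on 0 to 26 counts per library. Of 11 other nucleotide sugar transporters 10 were tested, with 6 positive, a median of 0.049 and a highest value of 1.92. Slc35d2 of that list lay at 1.32 to 2.47 when single libraries were left out, on 0 to 44 counts per library, and did not pass. The median over all genes was 0.0017 in the pooled Gne comparison. In Gne+/- against wildtype mice, 2 sialyltransferases and 2 other nucleotide sugar transporters had an unadjusted p under 0.05 (edgeR), beside 5.76% of all genes. In Gne+/- C3-/- against C3-/- mice 1 sialyltransferase did, beside 1.35%.

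In the pooled C3 comparison 1 gene of these lists passed, a nucleotide sugar transporter, beside 0.569% of all genes. No gene of the transporter list passed in C3-/- against wildtype mice (lowest edgeR adjusted p = 0.999). The same held in Gne+/- C3-/- against Gne+/- mice (lowest edgeR adjusted p = 0.0867). Slc35a5, a Golgi transporter of the same family as Slc35a1 (ENSMUSG00000022664, chromosome 16, 45139573 to 45158706), was higher by 0.79 (SE 0.185, 95% interval 0.42 to 1.17, edgeR adjusted p = 0.0290). In run 1 wildtype mice averaged 14.9 ± 4.53 CPM (SD, n = 5) and C3-/- mice 21.6 ± 5.13 (n = 4). The heterozygotes averaged 9.43 ± 3.48 (n = 5) with C3 and 17.2 ± 5.99 (n = 4) without it. Run 2 means were 9.88 and 13.8 CPM with both Gne copies and 6.86 and 19.3 CPM in heterozygotes. Means were higher without C3 in both runs. The libraries overlapped except in run 2 heterozygotes, at 5.70 and 8.02 CPM with C3 and 18.2 and 20.4 without it. Pairs can separate in this way without a true difference, and the share of all genes that did so was not computed. The call was lost in run 1 alone (0.69, adjusted p = 0.311), in run 2 alone (0.99, 0.325), without the run term (0.74, 0.221) and with the Y-linked term (0.75, 0.0817). It was also lost without any 1 of 8 libraries, namely wildtype mouse 8, Gne+/- mice 1 and 7, C3-/- mice 5 and 8 and Gne+/- C3-/- mice 3, 7 and 8, at adjusted p of 0.0518 to 0.0809. St6gal1, which adds sialic acid to N-glycans, stood at -0.76 with loss of C3 (SE 0.251, unadjusted p = 0.00481) and did not pass (edgeR adjusted p = 0.317).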

How the data were processed

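The authors deposited a raw, unnormalized count for each gene in each library. The submitters' processing notes name STAR 2.7.3a, featureCounts, Subread 2.0.0 and GRCm38. Per the file headers, featureCounts was version 2.0.3 with Ensembl release 101, over exon and gene features, with no strand, multi-overlap or multi-mapping option. The 27 single files equalled the series table. Symbols were matched to 55141 of 55487 identifiers, and positions come from the file annotation.

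Counts were tested with edgeR 4.0.16 in R 4.3.3 (filterByExpr with a minimum count of 10, TMM, robust quasi-likelihood fit, 4 genotypes and run, 22 residual degrees of freedom), with Benjamini-Hochberg adjustment over 17409 genes at 0.05. CPM uses the TMM-scaled library sizes, and log2 CPM for permutations and correlations has a prior count of 2. The exact permutation tests exchanged labels within run. None of 78 library pairs within a genotype was a duplicate (chi-square per degree of freedom 9.77 or more). The procedure was also run on simulated counts with planted changes, and no result given here rests on that run. Intervals on folds include the spread between mice; reads carry no molecular identifiers.

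The members, the gene lists and the alternatives were chosen with earlier results of these data known. Named genes are the 6 members, the genes of each pathway list past the threshold or those with the smallest p, and the 3 genes most correlated with each member. Provisional symbols were skipped in those correlations. Alternatives were DESeq2 1.42.0, limma-voom (limma 3.58.1), other size factors and filters, no robust fit, no run term, each run alone, a replicate block, a Y-linked term, a pseudocount of 0.5 CPM and leaving out each library. The fit by genotype and run and the ratio of Gne to Cmas were added after the data were seen. Promoter windows are from RefSeq (GRCm38.p6), and 6 of 6 members matched.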

Additional observations from a re-analysis of the deposited data

Results flagged for a closer look

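Of 24 groups of 4 or 5 libraries of run 1 (6 genes in 4 genotypes), 2 had a library far from the rest by Dixon's test at the 95% level. Chance alone marks about 1 in 20 such groups. Gne in C3-/- mouse 5 was at 135.6 CPM, with the other 3 libraries of that group at 109.6 to 110.9 CPM. Cmas in wildtype mouse 6 was at 135.3 CPM, with the next library at 90.6 and the lowest at 73.5 CPM; it is the library with the lowest wildtype ratio of Gne to Cmas, 0.972. Without wildtype mouse 6 the difference of Cmas in C3-/- against wildtype mice changed sign, to 0.070 on the log2 scale, and it did not pass the threshold with or without it.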

How the results depend on the processing

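Over all settings and left-out libraries, 2715 values kept their direction and their side of the threshold. Another 72 changed sign, 27 no longer passed and 28 counts past the threshold moved. Values that passed under no setting are among those kept. Gne stayed lower in every Gne comparison and passed under every setting except without the run term, where it was -1.49 (edgeR adjusted p = 1.0) in Gne+/- against wildtype, -1.47 (1.0) in Gne+/- C3-/- against C3-/- and -1.48 (0.186) pooled, with 0 members and 0 genes past the threshold in each. Leaving out a library kept Gne between -1.60 and -1.48, between -1.66 and -1.57, and between -1.61 and -1.55. The test past a fall of 1 gave an adjusted p of 1 without the run term and in run 1 alone, and of 0.000106 to 0.00217 without single libraries.

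Counts of genes past the threshold moved, and the cause was not tested. For Gne+/- against wildtype the count was 8 in DESeq2 and 72 with no filter, and 1 to 2 without single libraries, with 2 without Gne+/- mouse 5. For Gne+/- C3-/- against C3-/- it was 9 with no filter and 5 in run 2 alone, and for the pooled Gne effect 2 in DESeq2, 34 with no filter and 5 in run 2 alone. For C3-/- against wildtype it was 63 in DESeq2, 91 with no filter and 13 without the run term. For Gne+/- C3-/- against Gne+/- it was 87, 306 and 13, with 11 in run 2 alone and 20 to 40 without single libraries (20 without Gne+/- C3-/- mouse 3, main 33). For the pooled C3 effect it was 171, 447 and 43, with 34 in run 2 alone, and for the interaction 30 with no filter and 4 in run 2 alone. Members past the threshold between the runs were 4 to 6 without single libraries.

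Sign changes touched only values that did not pass. In run 2 alone these were Renbp at 0.17 in Gne+/- against wildtype, Cmas at -0.12 and Renbp at -0.13 in Gne+/- C3-/- against C3-/-, Cmah at 0.077, Renbp at 0.024 and Slc35d2 at -0.68 in the pooled Gne effect, Cmas at 0.033, Renbp at 0.31 and Npl at 0.069 in C3-/- against wildtype, Slc35a1 at 0.16 and Npl at 0.14 in Gne+/- C3-/- against Gne+/-, Npl at 0.11 in the pooled C3 effect, and Gne at 0.070, Renbp at -0.30, Slc35a1 at 0.33 and Npl at 0.073 in the interaction. In run 1 alone they were Cmas at 0.023 and Cd33 at 0.35 in the pooled Gne effect. Without the run term they were Renbp at -0.067 in Gne+/- C3-/- against C3-/-, Cmas at 0.00064 in the pooled Gne effect, Cmah at 0.22 and Renbp at 0.033 in C3-/- against wildtype, Cmas at -0.051 in the pooled C3 effect, and Gne at 0.013 and Slc35a1 at 0.023 in the interaction. In limma-voom they were Npl at 0.026 in Gne+/- C3-/- against C3-/-, Cmah at 0.023 and Npl at 0.0060 in the pooled Gne effect, Renbp at 0.076 in C3-/- against wildtype and Npl at 0.040 in the interaction. With the stricter filter Slc35a1 was at 0.0086 in the interaction, with the Y-linked term it was at 0.022 there and Cmas at 0.027 in C3-/- against wildtype, and with a pseudocount of 0.5 CPM the permuted difference of Renbp in C3-/- against wildtype was -0.013. Without single libraries the ranges that crossed 0 were -0.39 to 0.042 for Npl in Gne+/- against wildtype, -0.062 to 0.10 for Cmas and -0.073 to 0.29 for Renbp in Gne+/- C3-/- against C3-/-, -0.13 to 0.059 for Cmah in the pooled Gne effect, -0.12 to 0.070 for Cmas, -0.20 to 0.073 for Cmah and -0.31 to 0.099 for Npl in C3-/- against wildtype, and -0.14 to 0.11 for Slc35a1 and -0.36 to 0.047 for Npl in the interaction. Renbp between the runs did not pass with no filter (0.95, edgeR adjusted p = 0.0515).

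Mouse numbers recur across genotypes. Between same-numbered libraries, the deviations of log2 CPM from the fitted genotype and run means correlated at -0.16 to 0.20. Of these pairs, 1 of 6 was over 0.1 in Gne+/- against wildtype and 1 of 5 in Gne+/- C3-/- against Gne+/-. So few low correlations cannot exclude a pairing, and the main comparisons did not use the numbers. With the replicate block, Gne was at -1.56 in Gne+/- against wildtype, at -1.64 in Gne+/- C3-/- against C3-/- and at -1.60 pooled, with 1 gene past the threshold in each; Cmas was at -0.055 in Gne+/- C3-/- against C3-/-, Npl at 0.073 in C3-/- against wildtype and Cd33 at 0.13 in the pooled Gne effect. The block changed no call for a member. Npl and Renbp rest on as few as 6 and 12 counts in a library, and their CV between run 1 wildtype mice, 60.7% and 47.7%, was above the 8.22% and 12.5% that counting error alone gives.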
